A study of Mus musculus with 12 samples.

Results

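Multi-exon cassettes are runs of 2 or more neighbouring exons that some transcripts of a gene carry together and others leave out together. Each was taken from the deposited event tables as an included form and a skipped form matched by position, strand and gene. A cassette was kept when the summed FPKM (fragment count scaled by transcript length and by library size) of its forms reached 1 in at least 4 of 6 libraries, an unlisted form being set to 0. That rule kept 1791 of 3473 cassettes, in 1232 genes. At the edge of the rule, the fourth-highest sum was 1.004 FPKM for a kept cassette of Tgds and 0.999 FPKM for one of Hs6st2 that was left out. The measure throughout is the included share, the included form's FPKM as a percentage of both forms' FPKM.

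The RNA came from cumulus cells of Kunming mice, labelled as granulosa cells of antral follicles. Of the 6 libraries, 3 came from cells treated with FSH, the gonadotropin that can drive cumulus expansion, together with fetal bovine serum (FBS) over 18 hours, and 3 from cells labelled untreated. The labels give no culture time for the untreated cells, so FSH, FBS and time in culture cannot be told apart. The labels do not say whether a group's libraries stem from different cultures or animals. Each p-value therefore reflects the spread among these particular samples only, and that spread may be technical.

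Skipping of exons is carried out by the spliceosome under the direction of RNA-binding proteins such as SR proteins and hnRNPs, which favour or block the use of nearby splice sites. A run of exons skipped together can remove a whole protein domain, and a run whose summed length is a multiple of 3 bases leaves the reading frame downstream unshifted. In matrix proteins and their receptors (tenascin C, versican, CD44) such runs encode repeated or glycosaminoglycan-bearing domains that tissues include to different degrees.

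Differences between libraries come before the results. Libraries 1 and 2 of each group were close to copies at the gene level, with a median absolute log2 difference of 0.107 for the treated pair and 0.128 for the untreated pair. Other pairs differed by 0.393 to 0.635. They were averaged and counted as 1 sample, which leaves n = 2 samples a group. The table of untreated library 2 was also numbered apart from the rest. None of its first and last exons that it shared with another library had the same locus number there, whereas the other 5 tables shared 100% of theirs. It listed neither form of 322 kept cassettes (18.0%), and for 253 of these every other library listed one. A form set to 0 in that library may therefore be a form that its table did not consider, and several results are also given without it. Of the granulosa and cumulus markers checked, Foxl2 was listed in no library, and the 10 markers summed to 374 to 575 FPKM. Theca and stroma markers summed to 16.1 to 17.5 FPKM after FSH and FBS against 61.4 to 76.1 FPKM in untreated cells, with Lum and Pdgfra listed in none, and Acta2 the only one of the 7 listed in FSH and FBS library 3. Oocyte markers summed to 0.157 to 11.7 FPKM against 12.3 to 15.3 FPKM. Leukocyte markers summed to 2.96 to 7.19 FPKM against 8.97 to 12.6 FPKM, with Cd52 and Csf1r listed in none. Endothelial markers summed to 2.58 to 3.37 FPKM against 0 to 0.438 FPKM, with Kdr, Tek, Tie1 and Emcn listed in none. The part of other cell types in the shares below was not tested.

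Many cassettes were listed in a single form. Both forms were listed somewhere for 943 of the 1791 (52.7%, in 707 genes), the included form alone for 593 (33.1%) and the skipped form alone for 255 (14.2%). Even where both forms existed, one usually dominated. Across the 6 libraries, 57.3% to 64.7% of the cassettes with both forms had a share of at least 90% and 15% to 22.7% a share of at most 10%. Shares between those limits made up 14.7% to 24.6%. Only 97 cassettes, in 83 genes, had both forms listed in all 6 libraries.

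The cassettes were mostly short. The exact exons and flanks of an included form are its pattern, and 294 cassettes had more than 1. Exon number and length are those of the pattern with the highest summed FPKM, while the included FPKM sums all patterns. Of the 1536 with a listed included form, 1078 (70.2%) had 2 exons and 254 (16.5%) had 3, and the summed exon length ran from 51 to 8097 bases with a median of 269. It was a multiple of 3 in 768 of them. Among cassettes with both forms that figure was 51.3%, and 52.6% where the mean share lay between 10% and 90%. Single cassette exons with both forms were at 45.9%, and at 54.3% within the same limits of share. Of the genes, 906 held 1 kept cassette and 326 held more, up to 12 in Mindy3. Cassettes of a gene can overlap: 180 of the 1198 cassettes with a skipped form had skipped values equal in every library to those of another cassette of the gene, so they are not independent measurements.

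The cassette with the most exons, 26, lies in a gene without a symbol in the table used and was listed as included only. Ank3, whose ankyrin G ties membrane proteins to spectrin, held a run of 23 exons on chromosome 10 (69808416 to 69932496, plus strand) built of many exons of 99 bases or multiples of it. Its included form measured 3.16, 2.32 and 0 FPKM after FSH and FBS and 7.43, 7.48 and 2.66 FPKM in untreated cells, and no skipped form was listed. Firre, a long noncoding RNA made of repeats, held a run of 17 exons in the most abundant of its 30 patterns. It was also listed as included only, as were the 12-exon runs of Il6st, the shared receptor subunit of IL-6-type cytokines, and of Prrc2a. Gon4l, with 21 exons, was the one named long run with both forms. Its shares of 0%, 55.5% and 0% after FSH and FBS and of 65.0% and 0% in untreated libraries 1 and 3 did not order by group, and untreated library 2 listed neither form. Positions here and below are as the deposited tables give them, on a genome build that is not given in the sources used here.

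On average, inclusion of a cassette differed between the groups by less than the spread of the FSH and FBS samples and by about that of the untreated samples. Over the 770 cassettes with both forms and a share in all 4 samples, the mean included share was 73.0% ± 2.57 (SD, n = 2) after FSH and FBS and 74.7% ± 1.68 (SD, n = 2) in untreated cells. The difference of -1.7 percentage points gave p = 0.667 in a two-sided exact permutation test, in which 2 samples against 2 cannot go below 0.33. With 1 library left out the difference ran from -0.459 points (without FSH and FBS library 3) to -3.91 points (without untreated library 3). Without untreated library 2 it was -1.67 points. The median difference was -0.0798 points, with 442 cassettes below 0 and 327 above. Differences of at least 20 points were found in 112 cassettes, 47 upward and 65 downward. Over all 1447 cassettes with a share in every sample the difference was -0.905 points (exact permutation p = 0.667), and -0.228 to -2.0 points without the same 2 libraries. Single cassette exons differed by -0.968 points (exact permutation p = 0.33, the smallest possible).

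**Figure D1:**
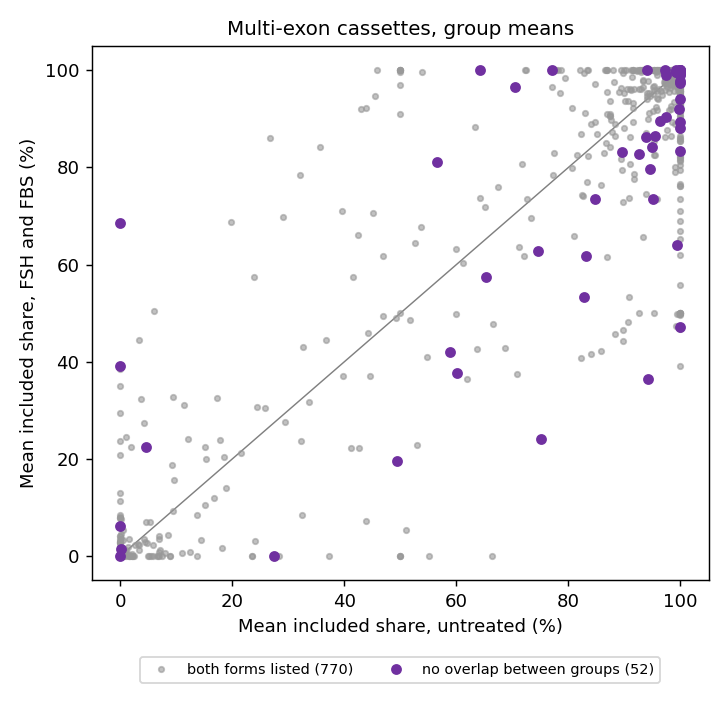
Mean included share of each multi-exon cassette with both forms, untreated on the horizontal axis and FSH and FBS on the vertical axis, both in percent; each point is 1 cassette, the line marks equal shares, and purple points are cassettes whose 3 libraries of one group all lie above those of the other. Points crowd the corners near 0% and 100%, and 52 cassettes were counted as not overlapping between groups, the tie of Actr3 at 100% included.

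Cassette by cassette, almost none passed the test. On the share itself, limma with Benjamini-Hochberg adjustment called 1 of 770 cassettes at 0.05, a lower share after FSH and FBS. Called cassettes were 0.13% of those tested, and 22 (2.86%) had an unadjusted p under 0.05, of which 18 were lower. On the log2 ratio of the forms with 1 FPKM added to each, limma called 0 of 1447 (0%), with 110 (7.6%) at an unadjusted p under 0.05. That ratio moves with the level of the gene where only 1 form is listed, as was so for 51 of the 110, and for that reason the share itself leads here. With all 6 libraries taken as separate replicates, limma called 14 of 1180 on the ratio (1.19%; 8 higher, 0.678%, and 6 lower, 0.508%), 9 of them cassettes with a single listed form, and 0 of 584 on the share. Single cassette exons gave 0 of 4896 on the share (0%), with 183 (3.74%) at an unadjusted p under 0.05.

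The libraries of the 1 called cassette overlapped between the groups. It was called neither with 6 separate libraries nor without untreated library 2. Without that library the only call was another cassette, one of Tmem161a, at -38.4 points (limma adjusted p = 0.02), which is named because it was called, after its values were seen.

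Shares also differed between libraries of one group. Over the 357 cassettes with both forms, at least 5 FPKM in both groups and a share in every library, the mean absolute difference in share was 5.91 points between FSH and FBS libraries 1 and 2 and 4.92 points between untreated libraries 1 and 2. Other pairs within a group differed by 7.42 to 8.41 points, and pairs across groups by 5.95 to 8.78 points. Both close pairs lay below all 9 pairs across groups, but by far less than at the gene level. Between FSH and FBS libraries 1 and 2, 7.56% of these cassettes differed by more than 20 points.

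**Figure D2:**
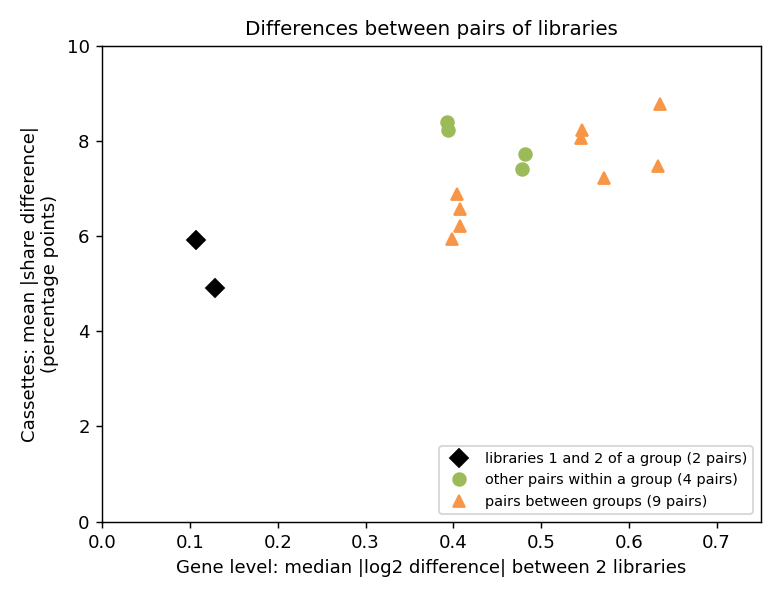
Each point is 1 of the 15 pairs of libraries: the horizontal axis gives the median absolute log2 difference of gene levels and the vertical axis the mean absolute difference in included share over 357 cassettes, in percentage points. Libraries 1 and 2 of a group lie far to the left of the other pairs (0.107 and 0.128) but not far below them (5.91 and 4.92 points).

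Gtf2i, which encodes the transcription factor TFII-I, shows what this scatter looks like in a highly expressed gene. The included form of its 3-exon cassette (63, 57 and 78 bases; chromosome 5, 134272524 to 134279514, minus strand) measured 19.3, 14.2 and 1.8 FPKM after FSH and FBS and 13.0, 16.6 and 5.89 FPKM in untreated cells. The skipped form was listed at 37.1 FPKM in FSH and FBS library 2 and at 32.3 and 42.2 FPKM in untreated libraries 1 and 2, and not at all in the other 3. Shares were 100%, 27.7% and 100% against 28.6%, 28.2% and 100%, so a form present in one of a pair of nearly identical libraries was missing from the other.

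Cassettes whose groups did not overlap were counted next, without a test. Groups were counted as apart when all 3 libraries of one stood above all 3 of the other. That count was 52 (8.9%) of the 584 cassettes with both forms and a share in every library. Of these, 18 were higher after FSH and FBS (3.08%) and 34 lower (5.82%). Shares were compared unrounded, and a share of 100% can differ in its last computed digit. Ties at 100% can therefore be counted as apart, here and for single exons, and how many were was not determined. The tie of Actr3 at 100% was counted as higher. For single cassette exons the figures were 362 of 3950 (9.16%), 3.42% higher and 5.75% lower, and for gene levels 38.9% of 9022. The share for multi-exon cassettes is near that for single exons. The lower ones differed by a median of -10.7 points and the higher ones by 4.44 points, and 27 of 34 against 9 of 18 differed by at least 5 points. Summed exon length was a multiple of 3 in 34 of the 52 (65.4%), beside 51.3% of all cassettes with both forms. Without untreated library 2, 105 of 766 (13.7%) did not overlap, 39 higher and 66 lower.

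Where both forms were listed in all 6 libraries, so that no share rests on an unlisted form, the groups were apart more often. This choice leaves out cassettes tied at 0% or 100%, so the percentage cannot be compared directly with that over all. Of these 97 cassettes 21 (21.6%) did not overlap, 6 higher (6.19%) and 15 lower (15.5%). Single cassette exons chosen alike gave 138 of 999 (13.8%), a difference that was not tested. Tmpo and Zc3h14 each held more than 1 of the 21, so these are not all independent. Among the higher ones, Cib1 and Hspb11 differed by only 2.81 and 0.847 points, and Usp34 by 24.5 points. In the 5 libraries that share a numbering 12 of 102 multi-exon cassettes were higher and 18 lower (29.4% in all), and 97 of 1053 single exons higher and 146 lower (23.1%). Limma on the share called 0 of the 97 (0%), with 10 at an unadjusted p under 0.05, 9 of them lower, and the smallest adjusted p was 0.0575, that of App. The median difference over the 97 was -0.0903 points.

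**Figure D3:**
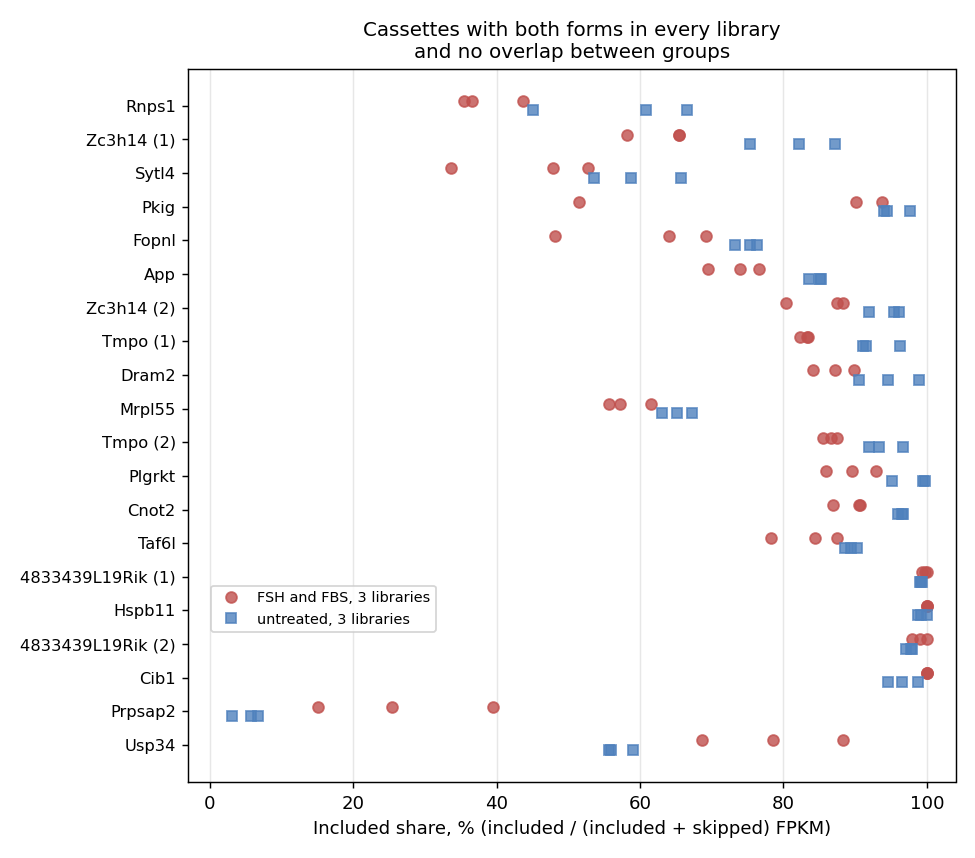
Included share in percent (horizontal axis) in each library for 20 of the 21 cassettes with both forms in every library and no overlap between groups; circles are the 3 FSH and FBS libraries, squares the 3 untreated ones, and numbers in brackets tell apart cassettes of 1 gene. In 14 of the 20 the circles lie to the left, and in Cib1, Hspb11 and 4833439L19Rik all points lie above 94%.

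App, the amyloid precursor protein gene, had the smallest unadjusted p of the cassettes with both forms in every library. Its cassette on chromosome 16 (85040251 to 85043743, minus strand) joins an exon of 168 bases, which encodes a Kunitz-type protease inhibitor domain, and one of 57 bases. The included form measured 21.9, 24.4 and 18.2 FPKM after FSH and FBS and 37.2, 35.3 and 22.1 FPKM in untreated cells. The skipped form measured 9.62, 7.44 and 6.44 FPKM against 6.48, 6.9 and 3.87 FPKM.

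Included shares were 69.5%, 76.6% and 73.9% against 85.2%, 83.6% and 85.1%, with every treated library below every untreated one. The difference was -11.3 points (SE 0.492, limma unadjusted p = 0.000535, adjusted p = 0.206), so it did not pass. That SE rests on averaged samples (73.1% and 73.9% after FSH and FBS), which hides the gap between the averaged libraries, 69.5% and 76.6%. With 6 separate libraries the limma unadjusted p was 0.0035 (adjusted p = 0.409). Over 14 alternatives it ran from -13.1 to -9.51 points with limma adjusted p from 0.0575 to 0.81. Without untreated library 2 it was -11.7 points (limma adjusted p = 0.0901). A transcript form with the larger exon alone was also listed in every library. Of the 3 forms together, the form with neither exon made up 16.3%, 12.3% and 15.6% after FSH and FBS and 8.52%, 9.13% and 10.1% in untreated cells, and again the groups did not overlap. Both exons together made up 37.2%, 40.3% and 44.1% against 48.9%, 46.6% and 58.0%. The level of the App gene differed by a log2 fold change of -0.11 (limma adjusted p = 0.93).

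Other cassettes with large lower shares without overlap, at 5 FPKM or more in both groups, are described gene by gene, and none of them passed the test (limma adjusted p = 0.811 for all but Tmpo, at 0.568). Ctbp1, a transcriptional corepressor, had shares of 76.0%, 81.6% and 48.1% after FSH and FBS and 95.4%, 100% and 100% in untreated cells, a difference of -35.3 points (SE 14.3). Its skipped form was listed at 4.35, 9.35 and 44.8 FPKM against 0.761, 0 and 0 FPKM. The difference was -19.3 points without FSH and FBS library 3 and -33.6 points without untreated library 2.

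Rnps1 and Zc3h14 had intermediate shares in every library. Rnps1, a component of the exon junction complex that is laid down on spliced RNA, held a cassette of 122 and 181 bases on chromosome 17 (24415041 to 24418218, plus strand). Its shares were 36.5%, 43.7% and 35.4% after FSH and FBS and 60.8%, 45% and 66.6% in untreated cells, a difference of -22.4 points (SE 6.09). The gap between the groups was narrow, between untreated library 2 and FSH and FBS library 2. Zc3h14, which binds polyadenosine RNA, held a cassette of 160 and 233 bases on chromosome 12 (98779108 to 98780280, plus strand). Its shares were 65.4%, 65.4% and 58.2% against 82.2%, 75.4% and 87.2%, a difference of -21.3 points (SE 4.92). Tmpo, the lamina-associated polypeptide 2 gene, held a cassette of 3 exons (111, 96 and 120 bases) with shares of 83.4%, 83.3% and 82.3% after FSH and FBS and 91.1%, 96.3% and 91.5% in untreated cells (-9.79 points, SE 1.12). Without untreated library 2 the differences were -26.0 points for Rnps1, -22.9 points for Zc3h14 and -8.46 points for Tmpo.

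Sytl4, an effector of Rab proteins in granule secretion, had shares of 52.7%, 47.8% and 33.6% after FSH and FBS against 53.6%, 65.7% and 58.8% (-16.8 points, SE 7.49, and -8.38 points without FSH and FBS library 3). Pkig, which encodes an inhibitor of the cAMP-dependent protein kinase, had shares of 51.5%, 90.1% and 93.8% against 94.5%, 97.6% and 94.0% (-14.9 points, SE 12.6), and -2.63 points without FSH and FBS library 1 or -29.0 points without library 3. Dab2, a clathrin adaptor, had shares of 99.9%, 98.3% and 77.2% against 100% in all 3 untreated libraries. Fopnl, a centrosomal protein gene, had shares of 48.1%, 64.1% and 69.2% against 75.3%, 76.3% and 73.3% (-11.8 points, SE 5.85, and -18.3 points without FSH and FBS library 3). In Dab2 the difference of -11.8 points (SE 9.76) came from a single library and was -0.878 points without FSH and FBS library 3.

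Higher shares without overlap were fewer, and none of those described passed the test (limma adjusted p of 0.811 to 0.853). Among those at 5 FPKM or more in both groups, Usp34, a deubiquitinating enzyme, is the one with both forms in every library and intermediate shares. Its cassette of 125 and 124 bases on chromosome 11 (23473170 to 23474389, plus strand) had shares of 68.6%, 78.6% and 88.3% after FSH and FBS and 59%, 55.6% and 56.0% in untreated cells, a difference of 24.5 points (SE 6.37). Setd6, a lysine methyltransferase, stood at 100%, 99.9% and 100% against 85.2%, 81.9% and 44.6% (35.8 points, SE 17.4, and 16.3 points without untreated library 3). Fndc3b, a membrane protein with fibronectin type III domains, stood at 86.2%, 100% and 100% against 86.1%, 85.6% and 55.0%, so that FSH and FBS library 1 and untreated library 1 nearly met, and its difference of 26.1 points was 10.7 points without untreated library 3.

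Myo6, the actin motor that moves toward the minus end of filaments, had a 3-exon cassette of only 27, 30 and 39 bases whose included form reached 2.24 FPKM in FSH and FBS library 3 and almost nothing elsewhere. Its shares were 0.00597%, 0.00651% and 12.2% against 0% in all untreated libraries. The cassettes of Cib1, Fxr1, Hspb11, Lap3 and Actr3 differed by at most 2.81 points, with shares close to 0% or 100% throughout. In Cib1, Fxr1, Hspb11 and Lap3 the ranking of the libraries separated the groups while the forms used were practically the same. In Actr3 no skipped form was listed in the FSH and FBS libraries or in untreated library 2. Its groups therefore tied at 100%, although it was counted as without overlap.

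In matrix genes the level of a form and its share in the cassette could differ between groups in separate ways. Vcan encodes versican, a proteoglycan that binds hyaluronan and is laid down in the expanding cumulus matrix. Its cassette on chromosome 13 (89688285 to 89705797, minus strand) joins exons of 5217 and 2880 bases, both of which encode glycosaminoglycan attachment regions. The form with both exons was listed at 2.24, 1.55 and 0 FPKM with FSH and FBS, and 3.68, 0.751 and 2.26 FPKM in untreated cells, and the form with neither at 2.38, 1.67 and 1.67 FPKM against 0.966, 0 and 1.06 FPKM.

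Included shares in Vcan were 48.4%, 48.2% and 0% against 79.2%, 100% and 68.0%, a difference of -50.9 points (SE 22.4, limma adjusted p = 0.811) without overlap between groups, -49.5 points without untreated library 2, in which the skipped form was unlisted, and -26.8 points without FSH and FBS library 3. After FSH and FBS both of these forms were minor beside a further one. The form with the larger exon alone was listed at 40.4, 40.2 and 21.5 FPKM with FSH and FBS, and 5.66, 9.42 and 1.62 FPKM in untreated cells. It made up 89.7%, 92.6% and 92.8% of the 3 forms against 54.9%, 92.6% and 32.8%, so the groups met at untreated library 2, whose near copy, untreated library 1, was lower by far. The level of the Vcan gene had a log2 fold change of 2.0 (SE 0.47, limma adjusted p = 0.076), and an adjusted p of 0.00031 with the replicate block.

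Tnc, which encodes the matrix glycoprotein tenascin C, held a cassette of 273 and 273 bases on chromosome 4 (63982651 to 63984732, minus strand), a length typical of fibronectin type III repeats. Its included form measured 12.1, 10.3 and 13.2 FPKM after FSH and FBS and 1.38, 1.22 and 2.32 FPKM in untreated cells. The skipped form was listed only in untreated libraries 1 and 2, at 0.716 and 0.586 FPKM. Shares were 100% in all treated libraries and 65.8%, 67.5% and 100% in untreated ones, and the groups overlap at 100% (16.7 points, SE 14.9, limma adjusted p = 0.811, and 33.4 points without untreated library 3). The gene itself was higher after FSH and FBS, with a log2 fold change of 1.94 (SE 0.35, limma adjusted p = 0.03), which became 1.68 (adjusted p = 0.088) after rescaling the libraries by the median of ratios.

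Cd44, the hyaluronan receptor, was listed only in a form that skips its cassettes. Its 6 kept cassettes are nested runs that end at the same exon on chromosome 2 (102831330, minus strand) and share a single skipped form, so they amount to 1 measurement. That form measured 7.82, 7.96 and 13.2 FPKM after FSH and FBS and 6.4, 5.24 and 3.59 FPKM in untreated cells, without overlap, and no included form was listed in any library. The gene's log2 fold change of 1.01 did not pass (SE 0.42, limma adjusted p = 0.28), but did with the replicate block (adjusted p = 0.044). Fn1, the fibronectin gene, held a 2-exon cassette (138 and 129 bases) listed only as included, at 14.1, 12.7 and 13.3 FPKM against 18.0, 17.6 and 3.0 FPKM.

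**Figure D4:**
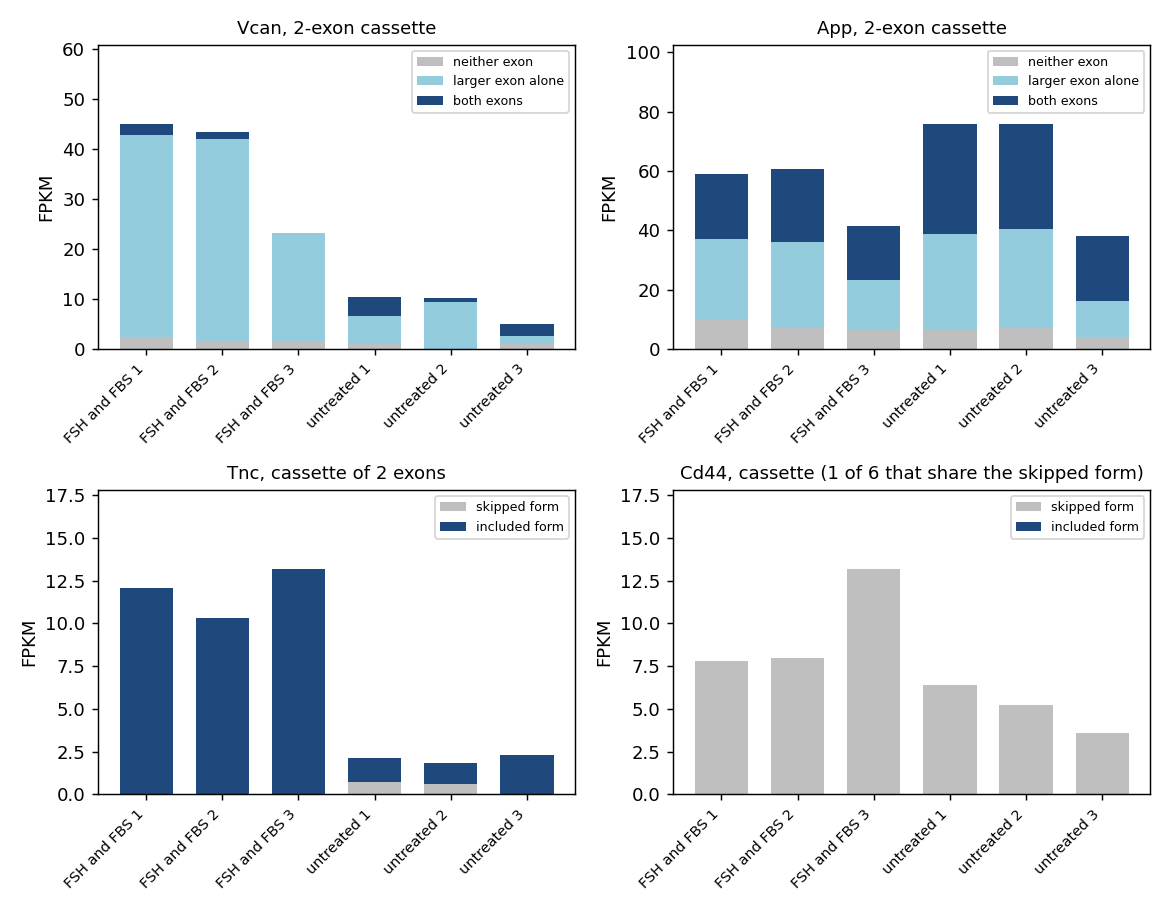
FPKM of each listed form by library, as stacked bars, for the cassettes of Vcan, App, Tnc and Cd44; dark blue is the included form (both exons), grey the skipped form, and light blue the form with the larger exon alone. In Vcan the form with the larger exon alone makes up most of the height after FSH and FBS, in Tnc the included form reaches 10.3 to 13.2 FPKM against 1.22 to 2.32 FPKM, and in Cd44 only the skipped form is listed.

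Cassettes in receptors and regulators that were looked up by name showed little that held across libraries. Fshr, the FSH receptor, held a cassette of 78 and 72 bases whose included form was listed at 1.26, 1.42 and 0 FPKM with FSH and FBS, and 2.29, 0 and 2.28 FPKM in untreated cells, with a skipped form of 0.426 FPKM in FSH and FBS library 1 alone. Insr, the insulin receptor, held a cassette of 36 and 202 bases, the smaller being as long as the exon that separates its known receptor variants. Its included form measured 7.8, 8.14 and 7.2 FPKM against 3.47, 0 and 2.32 FPKM, and a skipped form of 1.8 FPKM stood in untreated library 3 alone.

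Mbnl1, itself a splicing regulator, held 3 kept cassettes. For the one of 36 and 95 bases, shares were 84.0%, 93.1% and 100% after FSH and FBS and 96.1%, 85.6% and 100% in untreated cells (-0.0594 points, SE 6.23), with no order by group. The other cassettes of Mbnl1 and the one of Numb, a regulator of Notch signalling, were listed as included only. Macf1, a linker of actin and microtubules, was listed as skipped only, and in Dst, its relative, the included form stood in untreated library 1 alone, at 2.43 FPKM.

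The lists of host genes held few cassettes with both forms and a share in every library. Over all 584 of these, 52 (8.9%) were counted as apart, 18 higher and 34 lower, the tie of Actr3 included. Cytoskeleton and adhesion genes held 14 of them, with 2 apart, both higher. Chromatin and transcription genes held 23, splicing regulators 10 and membrane traffic genes 7, with 0 apart in each. Signalling genes held 7, with 1 lower (App), and matrix and hyaluronan genes 2, with 1 lower (Vcan). Apoptosis genes held none. These numbers are too small to set any list apart from the rest. The median difference was 0.194 points for cytoskeleton and adhesion, -0.0987 for chromatin and transcription, -0.735 for signalling, -7.98 for membrane traffic over 10 cassettes and 0.0122 for splicing regulators over 12, beside -0.0798 over all 770.

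Several of the most abundant cassettes on these lists were in a single state. Clta, the clathrin light chain A gene, was listed only without its 2-exon or longer run, at 125.0, 129.0 and 267.0 FPKM with FSH and FBS, and 138.0, 150.0 and 169.0 FPKM in untreated cells. Map4k4, a kinase upstream of JNK, was likewise skipped only, at 56.0, 62.3 and 2.9 FPKM against 111.0, 128.0 and 42.4 FPKM. Add1, the alpha-adducin gene of the membrane skeleton, was always included at one cassette (50.7, 48.6 and 38.1 FPKM against 17.3, 32.1 and 24.5 FPKM) and always skipped at another. Osbpl9 and Ptbp3 were included only, Bid and Hnrnpk skipped only, and Rbm39 had an included share of at most 0.00391% in any library.

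Of the abundant cassettes with both forms, Bin1 and Map4 carried measurable amounts of each. Bin1, which encodes the membrane-bending protein amphiphysin 2, had shares of 39.2%, 37.7% and 35.6% after FSH and FBS and 37.9%, 47.9% and 46.6% in untreated cells over exons of 129 and 72 bases. The groups overlapped through untreated library 1, and the difference was -7.64 points (SE 2.17, limma adjusted p = 0.811). Map4, a microtubule-associated protein gene, was included at 99.8%, 99.7% and 99.0% against 99.0%, 99.5% and 80.3%; its difference of 9.56 points was 0.101 points without untreated library 3.

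Without a block, few genes that hold a cassette were called at the gene level. Of 1172 host genes tested with limma on log2(FPKM + 1), 10 were higher and 2 lower (1.02%), beside 214 of 9022 genes (2.37%; 152 higher, 1.68%, and 62 lower, 0.687%). Median log2 fold changes were 0.16 for host genes and 0.24 for all genes, a shift that rescaling by the median of ratios took to 0.002, and 7 of the 12 calls then remained. Gene levels of same-numbered libraries deviated together, and with the number as a block limma called 103 host genes higher and 59 lower (13.8%), beside 1040 (11.5%) and 407 (4.51%) of all genes (16% in all). Where the host gene was called without the block and both forms were listed, no cassette was apart between groups (Heg1, Lrrfip1, Mbp, Tnc and Derl3, named for that call). Over all cassettes 52 of 584 (8.9%) were apart, so these few cannot be set apart from the rest. The difference in share had a median of 1.74 points over the 4 in higher genes, with 16.7 points in Tnc. In Derl3, which was lower, it was -6.35 points. Heg1, a receptor of endothelial junctions, was at 69.7, 72.9 and 45.4 FPKM with FSH and FBS, and 14.3, 12.5 and 7.2 FPKM in untreated cells (log2 fold change 2.42, SE 0.42, limma adjusted p = 0.028, and 0.069 after rescaling). Its cassette share was 97.9% ± 2.99 (SD, n = 2) against 98.5% ± 2.17 (SD, n = 2). In Heg1 the form used was thus nearly the same while the level differed severalfold.

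Of 65 splicing regulators tested, limma called 0 without a block, beside 2.37% of all genes, with 3 at an unadjusted p under 0.05, and their median log2 fold change was -0.09 against 0.24. With the replicate block it called 4 (6.15%, beside 16% of all genes), all lower: Ptbp2 (adjusted p = 0.0053), Luc7l2 (0.0171), Clk1 (0.0378) and Srsf10 (0.0451). Srsf10 is named for this call, after its values were seen. Of the 8 with the smallest p, 7 were lower in the fit, led by Clk1, a kinase of SR proteins, at 43.0, 51.4 and 34.4 FPKM with FSH and FBS, and 124.0, 129.0 and 64.9 FPKM in untreated cells (log2 fold change -1.15, SE 0.43, limma adjusted p = 0.25). Hnrnpa1, which favours exon skipping at many exons, was at 304.0, 302.0 and 247.0 FPKM against 502.0, 495.0 and 463.0 FPKM, without overlap (log2 fold change -0.81, limma adjusted p = 0.42). The others were Khdrbs3 (-0.94), Ptbp2 (-1.84), Luc7l2 (-1.26), Hnrnpdl (-0.78), Hnrnph3 (-0.74) and Srsf9 (1.07), with log2 fold changes in brackets and limma adjusted p from 0.27 to 0.44. In Srsf9 the difference came from FSH and FBS library 3, at 55.5 FPKM against 11.5 to 12.7 FPKM in the other 5.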

How the data were processed

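The deposited tables list transcript events with their FPKM, per the file headers, and list none at 0. Per the submitters' processing notes the aligner was HISAT2 2.0.1. The event caller, its filters and the genome build are not given in the sources used here. With FPKM alone, library depth is unknown. The small-RNA libraries were not analysed here. Members and gene lists were chosen with earlier results of these data known.

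FPKM was summed over rows with the same position, strand, gene and form. More than 1 row went into a form in 362 of the 1791 kept cassettes. Gene level was the larger of the summed first-exon and last-exon FPKM. Symbols matched 1789 kept cassettes.

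Shares in percent, log2 ratios (1 FPKM added) and log2(FPKM + 1) were tested with limma 3.58.1 in R 4.3.3, with a trend, two-sided, adjusted over all features tested at 0.05. The log2 ratio was the test chosen at the outset. The share was listed then as a second measure and was made the lead after the tables had been seen. Fits were also run on simulated data. The outcome of that run is not given here, so it does not show that the fits suit these libraries. Libraries 1 and 2 were averaged. Same-numbered libraries deviated together in share by r = -0.0883, 0.0861 and 0.135. Only the last is above the limit of 0.1 set for pairing, so numbers were not taken as pairs for shares. For gene levels r was 0.319, 0.31 and 0.508, all above that limit. Libraries 1 and 2 being near copies, these 3 values are not independent. Values with the number as a block are given where a gene test printed here differs in call. The levels of Ank3, Map4k4, Dst, Cib1, Osbpl9 and Fshr, whose gene tests are not printed, were also called only with the block. The blocked fit on the averaged samples leaves 1 residual degree of freedom a gene before limma's moderation.

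Named cassettes were the 10 largest lower and 10 largest higher shares counted as without overlap at 5 FPKM or more in both groups, 22 fixed genes, the 5 runs with the most exons in genes with a symbol (of several tied at 12 exons, 2), up to 3 of the most abundant per list, and the 8 regulators with the smallest p. Some cassettes so picked are not reported here. Predicted genes were not named, except in the plot of shares with both forms in every library. Alternatives varied the pseudocount (0.1), the filter, the row used, the matching, the samples, the block and the scaling.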

Additional observations from a re-analysis of the deposited data

How the results depend on the processing

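On the log2 ratio, limma called 0 cassettes, 1 with the share tested itself and 14 with 6 separate libraries; every other alternative, the replicate block among them, gave 0. On the share, 1 call became 0 with at least 5 FPKM, with both forms in all 6 libraries, with 1 cassette a gene, with 6 separate libraries, with the replicate block and with the block over 6 libraries. Leaving out 1 library gave 0 to 106 calls; the 106 (27 higher, 79 lower of 787) arose without FSH and FBS library 3, which leaves that group a single sample assumed to vary like the untreated ones. Leaving out untreated library 1 or 3 gave 0. Cassettes without overlap numbered 52, 21 where both forms were listed in all 6 libraries, and 78 to 120 with 1 library left out, as fewer libraries overlap less. Genes called numbered 214, and 1323 with 6 separate libraries, 1447 with the replicate block, 91 after rescaling (50 higher, 41 lower, against 152 and 62) and 101 to 384 with 1 library left out (101 without untreated library 3, 384 without FSH and FBS library 3). Of 222 values for 32 named cassettes under these alternatives, 214 moved by less than the spread between samples, and 8 moved further. Where 1 library makes the difference that spread is wide, so the 214 do not show stability. Among them, without untreated library 3, Insr went from 21.8 to 0 points and Map4 from 9.56 to 0.101 points. Opposite signs arose in 11 values of 4 cassettes, also among the 214, and none of these cassettes was called. They were both of Gtf2i (9.52 to -16.8 and 11.9 to -23.6 points without FSH and FBS library 3), Mbnl1 and Rbm39. For these values only the row used and the libraries kept were varied. The pseudocount and the filter do not enter the share of a given cassette. Matching by pattern, and rescaling before libraries 1 and 2 are averaged, can alter a share but were not run for them. Taking the largest row moved 127 cassettes with both forms (13.5%) by over 5 points in some library. Depth and counting error are unknown, n is 2 samples a group, and a cassette that did not pass is not shown to be unchanged.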
